A study of Bos taurus with 13 samples.

Results

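Expression of glucose transport and glycolysis genes was examined in the whole blood of dairy cows with high or low cortisol in their milk, cortisol being a hormone released by the adrenal gland under stress. The 10 genes were chosen by name, as the glucose transporters *SLC2A1* and *SLC2A3*, the hexokinases *HK1*, *HK2* and *HK3*, the bifunctional enzymes *PFKFB3* and *PFKFB4*, the pyruvate kinase *PKM*, the lactate dehydrogenase *LDHA* and the enolase *ENO1*. Of these, 8 were found among the 16095 named genes of the count tables, and *SLC2A3* and *ENO1*, for which no entry of that name was found, were not analysed here. All cows were of the breed labelled Italian Red Pied, with no treatment in the labels, and their age was not given in the sources used here. The high group held 7 cows (replicates 1 to 7) and the low group 6 cows (replicates 8 to 13), taken from the extremes of a ranking by milk cortisol, with 1 library per cow. Blood was drawn from the tail vein into PAXgene tubes, which lyse the cells and preserve RNA, and the globin RNA was not removed before sequencing.

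Glucose enters blood cells through transporters of the SLC2A (GLUT) family and is trapped inside by hexokinases, which add a phosphate. The PFKFB enzymes make and break down fructose 2,6-bisphosphate, the strongest activator of phosphofructokinase, while pyruvate kinase forms pyruvate at the end of the pathway and lactate dehydrogenase interconverts pyruvate and lactate. Neutrophils, with few mitochondria, depend largely on glycolysis for their energy, and activated monocytes and lymphocytes raise it. Whole blood is a mixture of such cells, so that fewer cells of a type and less RNA per cell cannot be told apart in these data.

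Reads counted on named genes were between 11045599 and 28124575 per cow, with a median of 18595924 in the high group and 17005346.5 in the low group, and no library duplicated another. The cow high replicate 4 stood apart from the others, since 24.5% of the genes tested had their lowest level and 27.4% their highest level in this library. None of the glycolysis genes had its lowest or highest level there, and values that move by over 1.5 times without it are given with and without it. Haemoglobin genes took between 0.0282% and 0.815% of the counts in the high group and between 0.0114% and 0.0552% in the low group. Blood markers were present, with sums of 7 neutrophil markers between 4177 and 9070 CPM, the counts of a gene relative to the normalised size of its library, and of 9 T cell markers between 2463 and 4505 CPM. The labels give no sequencing batch or date, so none was compared.

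The 8 genes differed widely in level, and their order was almost the same in every cow. Levels between genes were compared as CPM per kilobase of exon (CPM/kb), averaged over the 13 cows. *PKM* was the highest, at 620 CPM/kb ± 126 (SD, n = 13), which was above the mean level of 98.9% of the 11033 genes tested. *LDHA* followed at 211 CPM/kb ± 35.1, and *HK3* at 161 CPM/kb ± 56.5. The pair *PFKFB4* (71.9 CPM/kb ± 15.8) and *PFKFB3* (67.1 CPM/kb ± 20.6) lay in the middle, above *HK1* at 30.4 CPM/kb ± 4.20. The lowest were *SLC2A1* (8.56 CPM/kb ± 1.45) and *HK2* (7.08 CPM/kb ± 1.78), below the mean level of most genes tested, since 40.5% and 36.3% of them had a lower level. *PKM* was in the first place and *HK1* in the sixth in each of the 13 cows, while *LDHA* and *HK3*, *PFKFB4* and *PFKFB3*, and *SLC2A1* and *HK2* exchanged places within their pairs in some cows.

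The order came from the mean levels in the same 13 cows, so neighbours and their direction were set by the values tested. Neighbours in this order were compared within cows with an exact two-sided sign-flip permutation test on the log2 scale, with Benjamini-Hochberg adjustment over the 7 comparisons. Of these, 6 passed an adjusted p of 0.05, and the same number passed when any of the 13 cows was left out. The comparison of *PFKFB4* with *PFKFB3* did not pass (mean log2 difference 0.12, SD 0.33, exact adjusted p = 0.20), *PFKFB4* being the higher in 9 of 13 cows. *LDHA* was above *HK3* in 10 of 13 cows (log2 difference 0.45, SD 0.58, exact adjusted p = 0.0236), and *SLC2A1* above *HK2* in 10 of 13 cows (log2 difference 0.30, SD 0.40, exact adjusted p = 0.0109). In the other 4 comparisons the upper gene was higher in all 13 cows, with exact adjusted p = 4.3e-04.

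**Figure D1:**
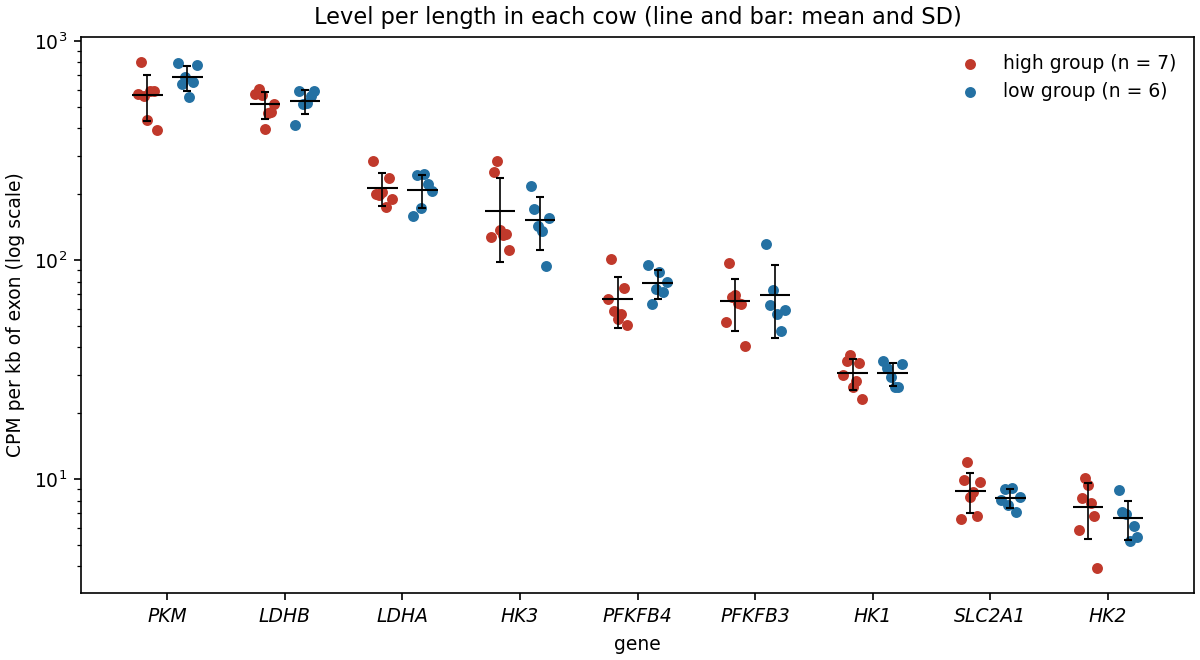
Level of each gene in each cow, in CPM per kilobase of exon on a log scale, with points for the 7 cows of the high group (red) and the 6 cows of the low group (blue), and lines and bars for the mean and SD of each group. *PKM* lies highest, *SLC2A1* and *HK2* lie lowest, and the points of both groups overlap for each gene, *LDHB* included.

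*SLC2A1*, which encodes the widely expressed transporter GLUT1, is on chromosome 3 of the UMD3.1 build (chr3:103902890-103931096, forward strand), with 2533 bp of exon in the count tables. Its level was between 16.7 and 30.2 CPM in the high group (median 22.1 CPM) and between 17.9 and 23.0 CPM in the low group (median 20.7 CPM). The highest level was in high replicate 3 and the lowest in high replicate 1, so that the high group spanned the whole of the low group. Compared with the low group, the log2 fold change by edgeR was 0.11 ± 0.14 (SE), with a 95% confidence interval from -0.19 to 0.41 (exact permutation p = 0.537 on log2 CPM). *SLC2A1* was not the most abundant transporter of its family among the genes counted, which leave out *SLC2A3*. *SLC2A6*, which encodes GLUT6, was higher per kilobase in 13 of 13 cows, by a ratio between 3.77 and 10.6 (median 7.61), a comparison chosen after these values were seen.

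The hexokinases catalyse the same first step, and *HK3* made up most of their RNA in every cow. *HK3*, a low-Km hexokinase known from myeloid cells, is at chr7:39693214-39712385 (reverse strand, 3058 bp of exon). *HK1*, the broadly expressed form, is at chr28:25854741-25925054 (forward strand, 3609 bp of exon), and *HK2*, the inducible form of muscle and of activated cells, at chr11:9723269-9766920 (reverse strand, 2960 bp of exon). Per kilobase, *HK3* made up 74.4% to 85.8% of the sum of the 3 genes (mean 80.3% ± 3.29, SD, n = 13), *HK1* 11.2% to 20.8% (mean 16.0% ± 2.83) and *HK2* 2.79% to 5.45% (mean 3.68% ± 0.853). The mean share of *HK3* was 80.5% ± 3.69 in the high group and 79.99% ± 3.06 in the low group, a difference below the SD of either. *HKDC1*, a related hexokinase, was at or below 0.0439 CPM/kb in all cows.

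*HK3* ranged from 342 to 868 CPM in the high group (median 403 CPM) and from 287 to 670 CPM in the low group (median 458 CPM). High replicates 2 and 3 and low replicate 8 were the highest, and the groups overlapped. Its log2 fold change was 0.13 ± 0.24 (95% confidence interval -0.37 to 0.63, exact permutation p = 0.752), although 5 of 7 high cows were below the median of the low group. *HK1* ranged from 84.0 to 134 CPM in the high group (median 108 CPM) and from 95.02 to 125 CPM in the low group (median 111 CPM). The groups overlapped almost completely, with a log2 fold change of 0.00 ± 0.12 (95% confidence interval -0.25 to 0.25, exact permutation p = 0.964). *HK2* ranged from 11.7 to 29.9 CPM in the high group (median 23.2 CPM) and from 15.5 to 26.4 CPM in the low group (median 19.3 CPM). Of the high cows 5 were above the low median, but high replicate 7 was the lowest of all, and the log2 fold change was 0.17 ± 0.20 (95% confidence interval -0.25 to 0.58, exact permutation p = 0.552).

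*PFKFB3*, whose enzyme has high kinase activity and so favours glycolysis, is at chr13:17380743-17406594 (reverse strand, 4370 bp of exon). Its level was between 178 and 423 CPM in the high group (median 280.3 CPM) and between 208 and 518 CPM in the low group (median 266 CPM). The highest cow was low replicate 8 and the lowest was high replicate 7. The log2 fold change was -0.10 ± 0.21 (95% confidence interval -0.54 to 0.34, exact permutation p = 0.746), and without low replicate 8 it was 0.12. *PFKFB4*, its paralogue, is at chr22:51898015-51933996 (forward strand, 1617 bp of exon), with levels between 82.2 and 164 CPM in the high group (median 95.2 CPM) and between 102 and 154 CPM in the low group (median 124 CPM). High replicate 2 had the highest level of *PFKFB4*, while the other 6 high cows were all below the low median. The log2 fold change was -0.25 ± 0.15 (95% confidence interval -0.57 to 0.08, exact permutation p = 0.124). The other members of the family were low, with *PFKFB2* between 1.32 and 2.47 CPM/kb and *PFKFB1* at or below 0.126 CPM/kb.

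*PKM*, which encodes the pyruvate kinase of most tissues, is at chr10:18965984-18992445 (reverse strand, 2273 bp of exon). Its level was between 898 and 1827 CPM in the high group (median 1312 CPM) and between 1262 and 1801 CPM in the low group (median 1521 CPM). As for *PFKFB4*, high replicate 2 was the highest of all cows and the other 6 high cows were below the low median, high replicates 7 and 4 being the lowest. The log2 fold change was -0.27 ± 0.15 (95% confidence interval -0.58 to 0.04, exact permutation p = 0.0845). In edgeR's test *PKM* had the smallest p of the 8 genes and the 453rd smallest of the genes tested. *PKM* made up 99.4% to 99.8% of the sum per kilobase of *PKM* and *PKLR*, the pyruvate kinase of liver and red cells. The counts are per gene, so the muscle-type splice forms of *PKM* were not separated.

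*LDHA*, the lactate dehydrogenase subunit that favours lactate formation, is at chr29:26543861-26554318 (reverse strand, 1816 bp of exon). Its level was between 317 and 517 CPM in the high group (median 364 CPM) and between 288 and 448 CPM in the low group (median 392.1 CPM). High replicate 1 was the highest and low replicate 8 the lowest, and the groups overlapped, with a log2 fold change of 0.03 ± 0.13 (95% confidence interval -0.26 to 0.31, exact permutation p = 0.833). *LDHB*, the other main subunit, was the higher per kilobase in 13 of 13 cows, by a ratio between 1.94 and 3.00, and *LDHA* made up 24.98% to 34.0% of the sum of both (mean 28.8% ± 3.23, SD, n = 13). *LDHB* itself was between 513 and 774 CPM in the high group and between 533 and 759 CPM in the low group, with a log2 fold change of -0.05 ± 0.12 (edgeR adjusted p = 0.998). Processed copies of *LDHA* and *PKM* are known in mammalian genomes, and since the sources do not say how reads matching several places were counted, the levels of these genes are less certain in this respect. None of the 8 genes shared exon positions with another gene of the tables.

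The comparison of the groups asked whether the level of these genes in blood went with the cortisol in milk. No gene was over-expressed or under-expressed in the high group by the quasi-likelihood test of edgeR, adjusted over all 11033 genes by Benjamini-Hochberg. At an adjusted p below 0.05 the test called 0 of the 8 genes, beside 0% of all genes tested, and edgeR's adjusted p was 0.998 for each of the 8. At an unadjusted p below 0.05 it called 0 of the 8 as well, beside 2.09% of all genes, 0.934% being higher and 1.16% lower in the high group. DESeq2 and limma-voom called 0 of the 8 at either threshold. The median log2 fold change of the 8 genes was 0.01, with 5 positive and 3 negative values, and that of all genes tested was 0.01. The median absolute log2 fold change was 0.12 for the 8 genes and 0.11 for all genes. All 95% confidence intervals lay between -0.58 and 0.63. For every one of the 8 genes the levels of the groups overlapped, a count given here without the share of all genes that did so.

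The values of *PKM* and *PFKFB4* changed with single cows and with the haemoglobin share. Without high replicate 2, the log2 fold change was -0.37 ± 0.13 for *PKM* and -0.37 ± 0.12 for *PFKFB4*. Then 2 of the 8 genes passed the unadjusted threshold, beside 3.40% of all genes tested in that fit. The edgeR adjusted p was 0.913 for each of the 2. Without high replicate 4 the log2 fold changes of *PKM* and *PFKFB4* were -0.22 and -0.20. Without high replicate 7 they were -0.20 and -0.19, and in both sets no gene of the 8 was past the unadjusted threshold. Without high replicate 4 the value of *HK2* was 0.10, and that of *HK1*, near 0, was 0.03. With the log2 haemoglobin share of each cow in the model, the log2 fold change was 0.02 ± 0.16 for *PKM* and 0.00 ± 0.17 for *PFKFB4*, and it turned positive for *PFKFB3* (0.16) and negative for *SLC2A1* (-0.02). In the same model the value was higher for *HK3* (0.34), *HK2* (0.32), *HK1* (0.16) and *LDHA* (0.13) than without the share, and none of the 8 genes passed the unadjusted threshold. The erythroid markers, of which 7 of 9 were counted, summed to between 375 and 7840 CPM in the high group and to between 138 and 571 CPM in the low group. All 5 erythroid markers tested had a positive log2 fold change, and 3 passed an unadjusted p of 0.05, *HBB* (2.68 ± 0.69), *HBM* (2.76 ± 0.78) and *ALAS2* (1.21 ± 0.46), beside 0.934% of all genes, with an edgeR adjusted p of 0.998 for each. *HBB* and *ALAS2* were above 0 in every cow, and *AHSP* was at 0 in some cows. The erythroid score, the mean of centred log2 CPM over the list, differed by 0.86 between the groups (exact permutation p = 0.0495, adjusted p = 0.396 over 8 marker lists). The scores of the other 7 lists, from neutrophils to platelets, had exact permutation p of 0.245 or more. Single markers of 3 of these lists passed an unadjusted p of 0.05, all lower in the high group as *PKM* and *PFKFB4* were by sign, beside 1.16% of all genes. These were 2 of 7 neutrophil markers, *S100A9* (log2 fold change -0.44 ± 0.16) and *CSF3R* (-0.45 ± 0.19), 1 of 6 monocyte markers, *CD68* (-0.53 ± 0.17), and 1 of 5 platelet markers, *GP1BB* (-0.61 ± 0.28). Their edgeR adjusted p was 0.998 for each, and this choice of markers followed from the values. Over the whole lists, 3 of 7 neutrophil and 4 of 6 monocyte markers were higher in the high group by sign, while all 5 platelet markers were lower. The part of the named markers in the values of *PKM* and *PFKFB4* was not tested.

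**Figure D2:**
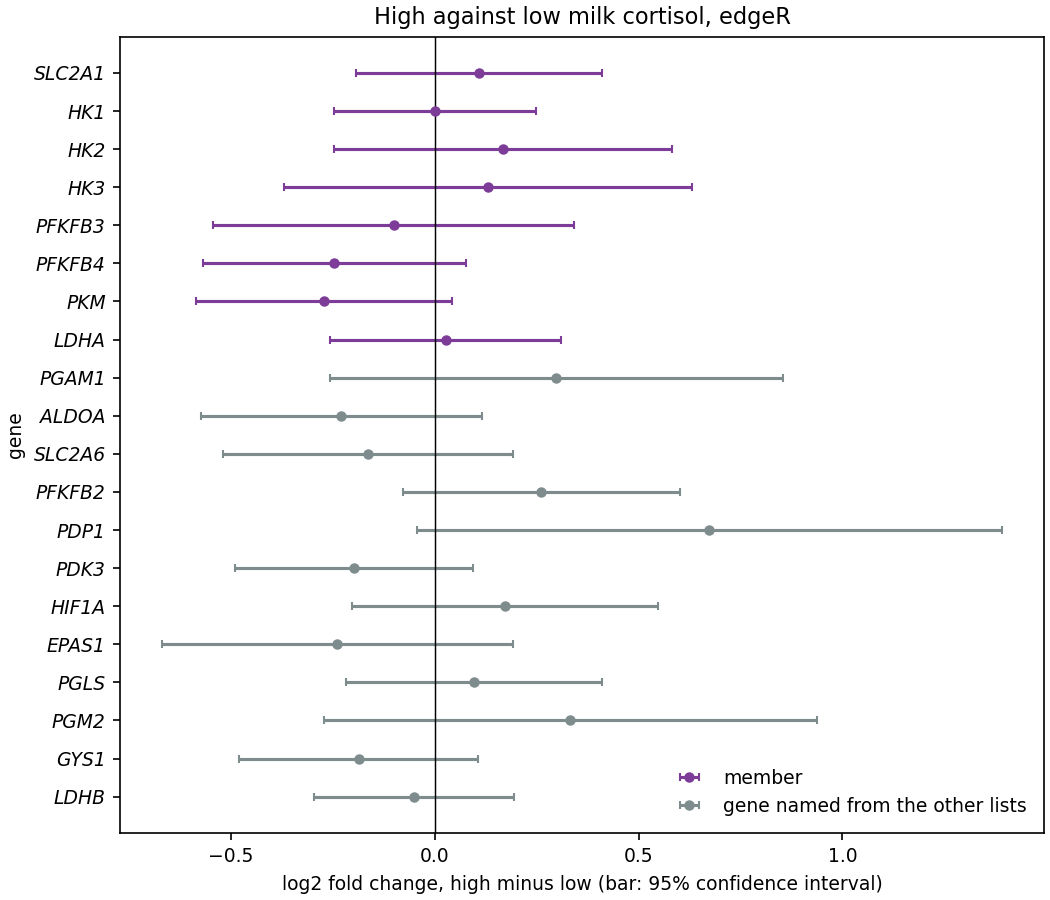
Log2 fold change of the high against the low group by edgeR, with 95% confidence intervals as bars, for the 8 glycolysis genes (purple) and for genes named from related pathways (grey). Every interval includes 0, the values of *PKM* (-0.27) and *PFKFB4* (-0.25) being the most negative of the 8.

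Ratios between isozymes within a cow do not depend on the scaling between libraries, and 4 were compared. The log2 ratio differed between high and low by 0.14 for *HK2* to *HK1* (exact permutation p = 0.436), by 0.09 for *HK3* to *HK1* (exact permutation p = 0.626) and by -0.19 for *PFKFB4* to *PFKFB3* (exact permutation p = 0.315). For *LDHA* to *LDHB* it differed by 0.08 (exact permutation p = 0.522), and the adjusted p was 0.626 for all 4. None was larger than the spread between cows, and none passed when any cow was left out. The values moved with single cows, from 0.045 to 0.22 for *HK2* to *HK1*, from 0.000206 to 0.17 for *HK3* to *HK1*, from -0.30 to -0.11 for *PFKFB4* to *PFKFB3* and from 0.03 to 0.14 for *LDHA* to *LDHB*. Without high replicate 4 they were 0.045, 0.09, -0.13 and 0.03 in the same order.

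Genes of the wider pathway were compared in the same fit, as lists, and none was called. In other glycolytic enzymes, 15 of 20 listed genes were tested and 0 passed an unadjusted p of 0.05, with 6 values above and 9 below 0. The smallest p in each direction belonged to *ALDOA*, the main aldolase (log2 fold change -0.23 ± 0.16), and *PGAM1*, a phosphoglycerate mutase counted at only 1.08 to 3.13 CPM (0.30 ± 0.26). Of 4 other glucose transporters tested, all with values below 0, *SLC2A6* had the smallest p (-0.16 ± 0.17). Of 3 other genes that control fructose bisphosphates, all with values above 0, *PFKFB2* had the smallest p (0.26 ± 0.16). Of 11 genes of pyruvate and lactate handling, *PDP1*, the phosphatase that activates pyruvate dehydrogenase, had the smallest p of any list (0.67 ± 0.34, 95% confidence interval -0.04 to 1.39), at 1.89 to 12.5 CPM. *PDK3*, a kinase that inactivates the same complex, was the lower extreme of that list (-0.20 ± 0.14). Of these lists, 0 genes passed the unadjusted threshold, beside the 2.09% of all genes given above.

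Along the pathway, the level per kilobase differed by more than an order of magnitude between the genes counted. No entry named *ENO1*, *GAPDH* or *BPGM* was found, so the levels of whole steps were not compared. How reads matching several places were counted is not known for these genes either. *ALDOA* was the highest glycolysis gene of those counted, at a median of 915 CPM/kb, and made up 87.2% to 92.5% of the aldolase sum. *PKM* (median 596 CPM/kb), *LDHB* (524 CPM/kb), *PGK1* (353 CPM/kb) and *TPI1* (281 CPM/kb) came next. Other counted genes of the later steps were lower, such as *ENO3*, an enolase (57.4 CPM/kb), and *PGAM1* (2.34 CPM/kb). Phosphofructokinase was represented mainly by *PFKP*, the platelet-type subunit, with 61.8% to 70.8% of the sum of the 3 genes. The ratio of *PKM* to *HK2* per kilobase was between 46.3 and 142 over the 13 cows.

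**Figure D3:**
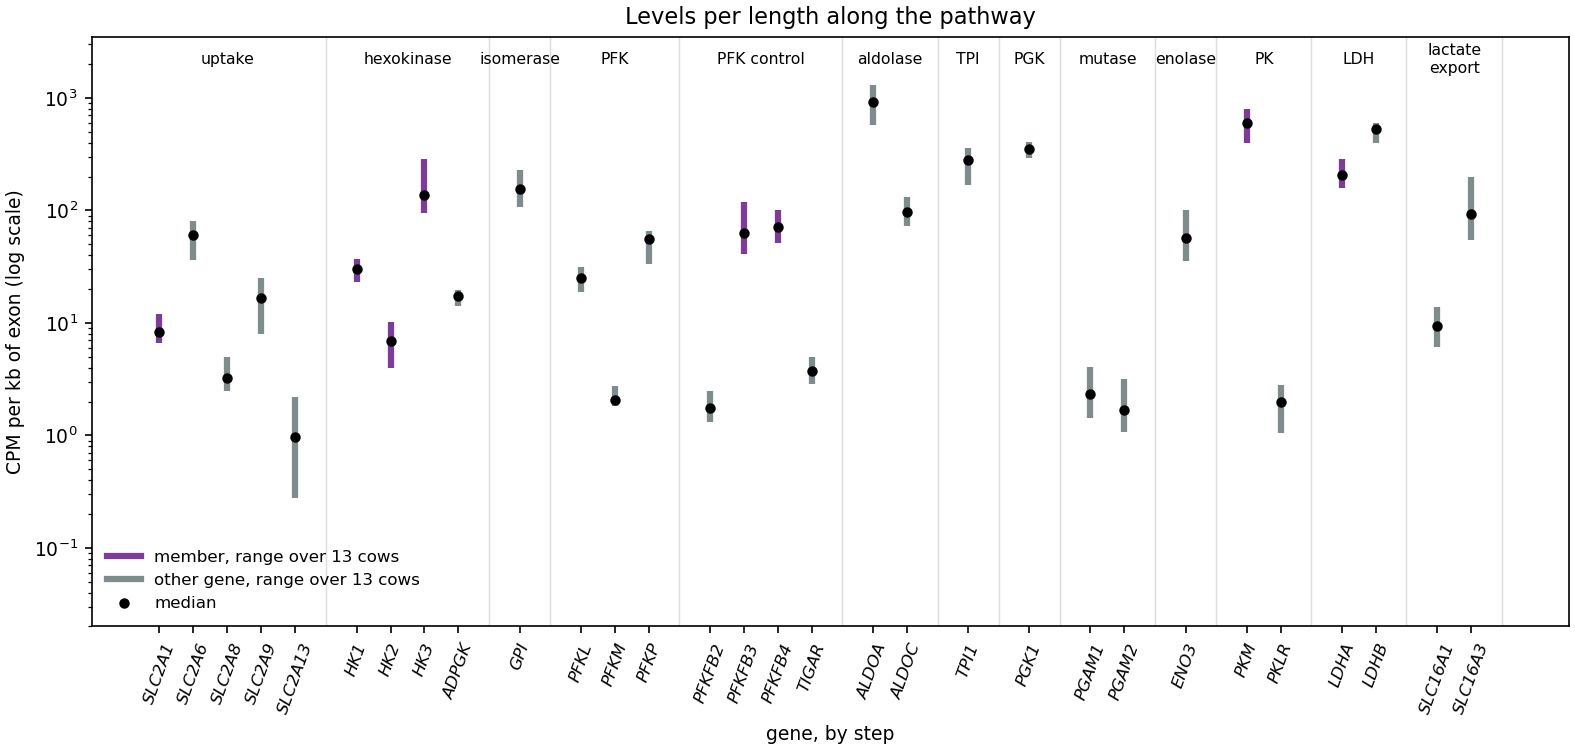
Level of counted genes along glycolysis in CPM per kilobase of exon (log scale), with the median (point) and the range over 13 cows (bar), the chosen genes in purple and other genes in grey. *ALDOA* and *PKM* lie highest, *LDHA* below *LDHB*, and *SLC2A1* and *HK2* have medians of 8.35 and 6.95 CPM/kb.

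The genes also differed in how much they varied between cows. The SD of log2 CPM over the 13 cows was 0.46 for *HK3*, 0.40 for *PFKFB3* and 0.38 for *HK2*, and 74.1%, 66.9% and 63.4% of all genes tested had a smaller one. *PFKFB4* and *PKM*, each at 0.31, matched the median of all genes, 0.31. *SLC2A1* and *LDHA*, each at 0.24, and *HK1* at 0.20 varied less, with 32.0%, 31.7% and 21.0% of genes below them. Counting error was small beside this spread, since the lowest count of any of the genes in a cow was 199, for *SLC2A1*, where counting alone gives a coefficient of variation of 7.09%, against 17% over the cows.

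Some of the genes varied together across the cows, among them the hexokinases *HK1* and *HK3*. Pearson's r of log2 CPM over the 13 cows was computed for the 28 pairs, with two-sided permutation p from 100000 resamples and Benjamini-Hochberg adjustment. Of these, 4 pairs passed an adjusted p of 0.05, all positive, and 2 passed by Spearman's rho. The median r was 0.321, beside -0.00235 over the 60858028 pairs of all genes tested. An r of 0.732 or more, the lowest among the 4 pairs that passed, was reached by 3.39% of all pairs. The share of the 28 pairs at this r, 14.3%, was fixed by that choice and is not a test. All pairs share the 13 libraries and their scaling.

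*HK1* and *HK3* rose and fell together (r = 0.795, permutation adjusted p = 0.0153, rho = 0.802, adjusted p = 0.0238), with r = 0.779 within the high group and r = 0.848 within the low group. Without the 2 cows farthest from the median of *HK1* it was 0.725. The call was lost only without low replicate 8 (r = 0.769), while the lowest r with 1 cow left out, 0.733, was without high replicate 3. *HK2* and *PFKFB3* were correlated as well (r = 0.738, permutation adjusted p = 0.0315, rho = 0.813, adjusted p = 0.0238), with r = 0.801 in the high group, 0.835 in the low group and 0.720 without the 2 farthest cows. This call was lost without high replicate 1 (r = 0.727), 2 (0.734) or 7 (0.629), or without low replicate 8 (0.747) or 11 (0.737).

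*HK3* and *PFKFB3* had r = 0.732 (permutation adjusted p = 0.0315, rho = 0.736, adjusted p = 0.0533), with 0.708 in the high group, 0.848 in the low group and 0.840 without the 2 farthest cows. The call was lost without high replicate 1 (r = 0.722), 2 (0.664) or 7 (0.706), or without low replicate 8 (0.716), 11 (0.728) or 12 (0.693). *PFKFB4* and *PKM* had r = 0.795 (permutation adjusted p = 0.0153, rho = 0.703, adjusted p = 0.0636), with 0.884 in the high group but 0.256 in the low group, a difference that was not tested. Without the 2 farthest cows it was 0.661, and the call was lost without high replicate 2 (r = 0.750), high replicate 7 (0.734) or low replicate 8 (0.754). The number of pairs past the threshold was 7 without high replicate 4 and 0 without low replicate 8.

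The r of *LDHA* was below 0 with each of the other 7 genes, from -0.035 with *PFKFB4* to -0.518 with *PFKFB3*, but none of these values passed the adjusted threshold. With *PFKFB3* the permutation adjusted p was 0.161 and rho was -0.582, with r = -0.173 in the high group and -0.823 in the low group. *SLC2A1* had its highest r with *HK3* (0.626, permutation adjusted p = 0.0770) and values between -0.321 and 0.229 with the other 6 genes.

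**Figure D4:**
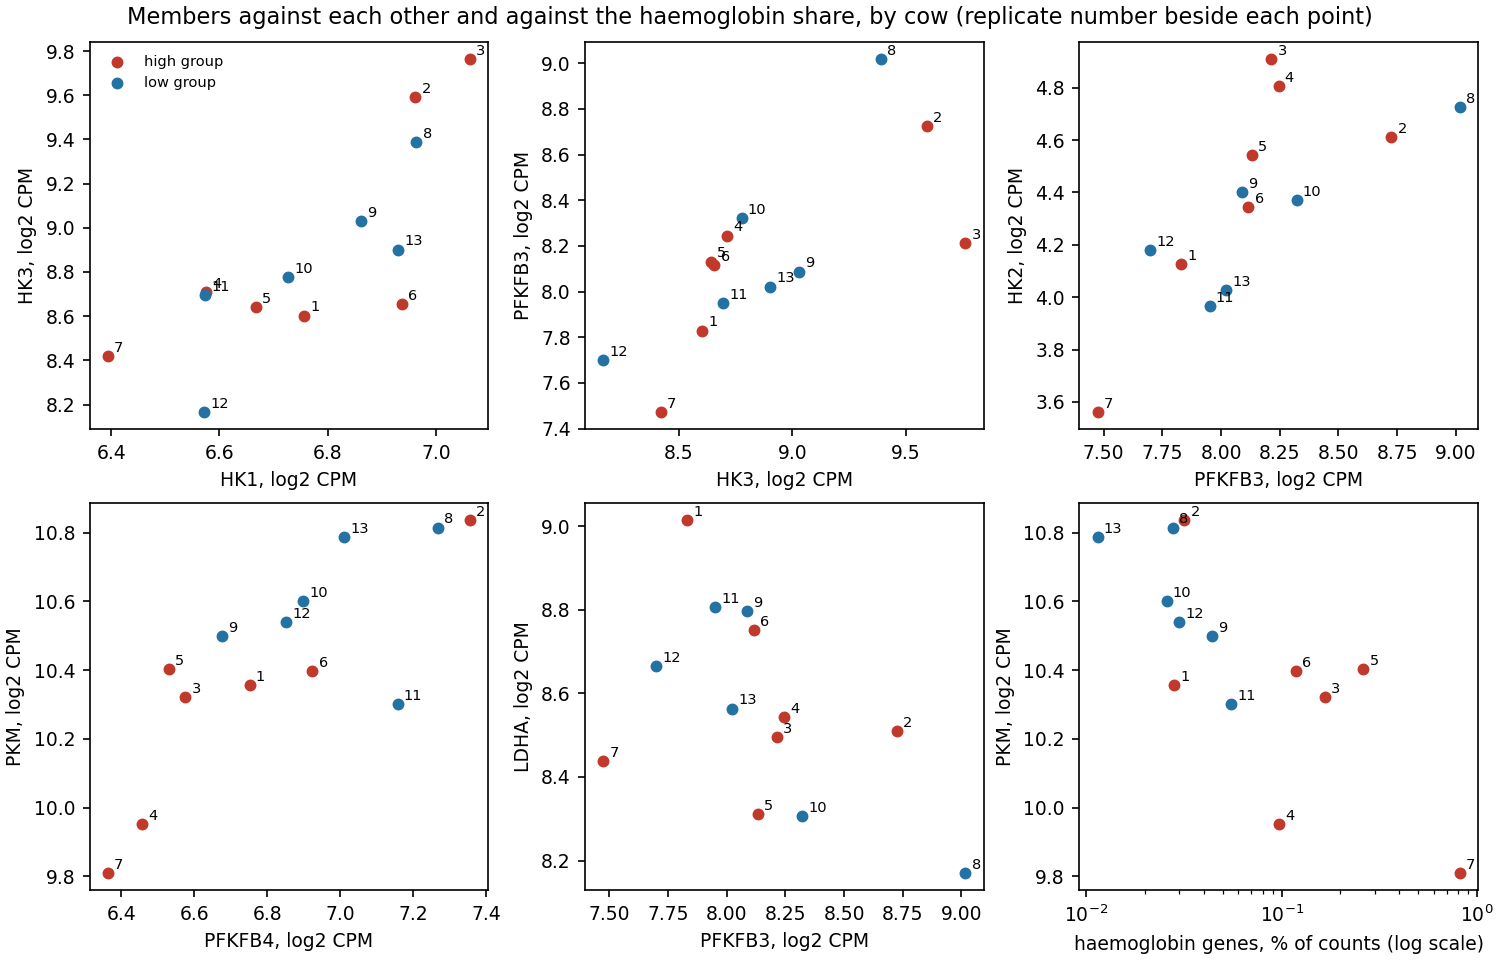
Log2 CPM of pairs of genes, and of *PKM* against the haemoglobin share in percent (log scale), with 1 point per cow, red for the high and blue for the low group, and the replicate number beside it. *HK1* and *HK3* rise together (r = 0.795), *LDHA* tends the other way from *PFKFB3* (r = -0.518), and high replicate 7, with the highest haemoglobin share (0.815%), has the lowest *PKM*. High replicate 5, with the next highest share (0.262%), has *PKM* at the median of the cows, 1354 CPM, and high replicate 4, next lowest for *PKM*, has a share of 0.0968%.

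Single cows marked both ends of these relations. High replicate 7 had the lowest level of all cows in 5 of the 8 genes, *HK1*, *HK2*, *PFKFB3*, *PFKFB4* and *PKM*, while 7.38% of all genes were lowest there. This cow also had the lowest score of neutrophil markers (-0.63) and of monocyte markers (-0.84) and the highest haemoglobin share, and their part in its low values was not tested. High replicate 3 had the highest level in 4 of the 8 genes, *SLC2A1*, *HK1*, *HK2* and *HK3*, while 4.56% of all genes were highest there, and it had the highest eosinophil score (1.67). High replicate 2 was the highest for *PFKFB4* and *PKM*, and low replicate 8 the highest for *PFKFB3* and the lowest for *LDHA*.

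The genes were set against scores of the 8 marker lists, which makes 64 pairs, and 3 passed an adjusted p of 0.05 by Pearson's r and 0 by Spearman's rho. *HK3* went with the eosinophil score, made of *CCR3*, *IL5RA* and *ALOX15* (r = 0.846, permutation adjusted p = 0.0256, rho = 0.681, adjusted p = 0.275). The r was 0.896 in the high group, 0.752 in the low group and 0.634 without the 2 farthest cows, and the call was lost without high replicate 3 (r = 0.760) or low replicate 12 (0.810). Among all genes tested, 0.290% had an r with this score as high as that of *HK3*. The eosinophil markers summed to between 220.1 and 1149 CPM in the high group and to between 172 and 527 CPM in the low group, and none of the 3 was at 0 in any cow.

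*PFKFB3* and *HK2* went with the monocyte score (r = 0.790 and 0.786, permutation adjusted p = 0.0452 for each, rho = 0.637 and 0.687, adjusted p = 0.275 for each). Without the 2 farthest cows, r was 0.627 for *PFKFB3* and 0.669 for *HK2*. Of all genes tested, 0.517% and 0.562% had as high an r with this score. The call of *PFKFB3* held in 3 and that of *HK2* in 5 of the 13 sets that leave out a cow, with r between 0.719 and 0.826 and between 0.616 and 0.827. The lowest r of both was found without high replicate 7. The 6 monocyte markers summed to between 557 and 1349 CPM in the high group and to between 954 and 1370 CPM in the low group. The number of pairs past the threshold was 9 without high replicate 4, and 0 without high replicate 3 or low replicate 12.

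The other relations with marker scores did not pass the adjusted threshold. The nearest to it was *SLC2A1* with the eosinophil score (r = 0.742, permutation adjusted p = 0.0606, rho = 0.626), with r = 0.414 without the 2 farthest cows and 0.743% of all genes as high. *PKM* and *PFKFB4* had their most negative r with the erythroid score, -0.673 and -0.649 (permutation adjusted p = 0.121 for each, rho = -0.577 and -0.599), and 0.653% and 0.934% of all genes had an r as low. *HK2* had r = -0.672 with the T cell score (permutation adjusted p = 0.121). With the neutrophil score, r was 0.649 for *PFKFB3* and 0.608 for *PFKFB4* but 0.427 for *HK3*, and *LDHA* was near 0 with the monocyte score and had its highest r, 0.36, with the T cell score. What part the cell composition had in the levels of these genes was not tested.

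**Figure D5:**
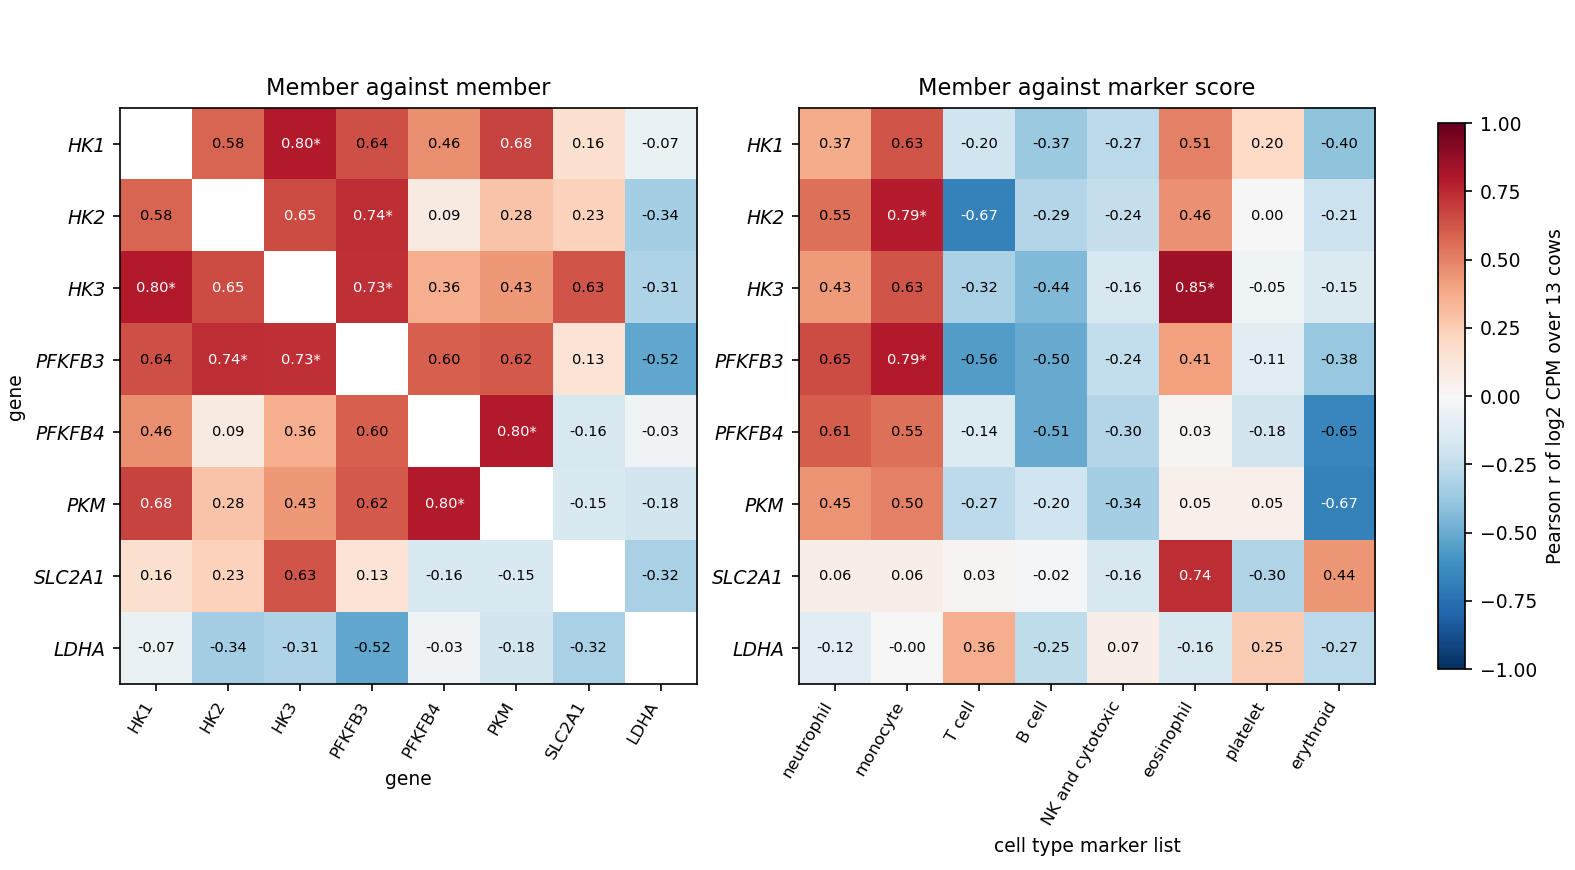
Pearson r of log2 CPM over 13 cows between the 8 genes (left) and between each gene and the score of each marker list (right), from -1 (blue) to 1 (red), with an asterisk at an adjusted permutation p below 0.05. Asterisks mark 4 of 28 pairs of genes and 3 of 64 pairs with a score, and the row of *LDHA* on the left is blue throughout.

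For each of the 8 genes, the 3 genes with the most similar pattern over the 13 cows were listed, among 8792 genes with a mean of at least 5 CPM, by Pearson's r of log2 CPM and as a description only. *PFKFB3* had the closest, *WASF2*, an actin regulator (r = 0.971), followed by *TBC1D14* (0.952) and *FOSL2*, an AP-1 transcription factor (0.950). The pattern of *PKM* was most like those of *ATP6AP1*, a subunit of the proton pump of vesicles (0.949), *SND1* (0.938) and *MVP*, the major vault protein (0.937). *HK3* was closest to *ARHGAP10* (0.934), *PADI4*, which citrullinates histones in neutrophils (0.925), and *C2CD2L* (0.915). *PFKFB4* was closest to *TPCN2* (0.888), *CSF3R*, the receptor of the granulocyte growth factor (0.886), and *CHI3L1* (0.872). *PADI4* and *CSF3R* are members of the neutrophil list. *HK2* was closest to *CNNM4* (0.853), *HK1* to *ACOT7* (0.840), *SLC2A1* to *ENHO* (0.868) and *LDHA* to *GALK2* (0.873), a kinase of galactose sugars. None of the 8 genes was among the 3 closest genes of another.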

How the data were processed

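The authors deposited raw counts of reads per gene name, with no normalization, for 13 cows. The file headers name featureCounts 1.4.6-p3 and Ensembl 88 gene models of UMD3.1, a folder with goat in its name and an animal number unlike that of the table. The submitters' processing notes name STAR 2.7.3, Subread 1.6.5 and ARS-UCD1.2. Genes without a name share 1 entry, which held 13.9% to 16.7% of counts and was left out. Groups are from the labels, which name no batch.

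TMM factors gave CPM, and log2 CPM with a prior count of 2. Genes passing filterByExpr (minimum count 10, minimum total 15) were fitted with edgeR 4.0.16 (robust quasi-likelihood, R 4.3.3), without covariates. SE is the fold change over the square root of the F statistic. CPM per kilobase used the exon length in the tables. Exact permutation tests, all two-sided, ran over the 1716 splits of cows (smallest p 5.8e-04) or 8192 sign flips. Alternatives were DESeq2 1.42.0, limma-voom (limma 3.58.1), RLE and upper-quartile factors, other count filters, haemoglobin genes left out, the haemoglobin share or a neutrophil minus T cell score as covariate, a fit that was not robust, and each cow left out. The edgeR, DESeq2 and limma-voom fits were tried on simulated counts first. At these depths 3 counts are 0.107 to 0.272 CPM, which covers counting error only.

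Genes named by rule are the 8 chosen genes, *LDHB*, the gene with the smallest p in each direction of 7 pathway lists, and the 3 genes most like each chosen gene. Other genes of the same families, the pathway lists and the marker lists are named outside this rule, with their values known. Pathway lists cover other glycolytic enzymes, other glucose transporters, fructose bisphosphate control, pyruvate and lactate, oxygen sensing, pentose phosphate and glycogen, and the 8 marker lists cover neutrophil, monocyte, T cell, B cell, NK and cytotoxic, eosinophil, platelet and erythroid genes. The genes and lists were chosen with earlier results of these data known. The ratio of *SLC2A3* to *SLC2A1* was planned and could not be made, and no sequence was used here. Some items are not reported here.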

Additional observations from a re-analysis of the deposited data

How the results depend on the processing

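The counts of the chosen genes called, of isozyme ratios called, of marker scores called and of neighbours that differ in level kept their side of the threshold under DESeq2, limma-voom, other factors, other filters and both covariates, as far as each was run. DESeq2 called 1 gene of the whole table, *CYP4X1*, counted in 2 of 13 cows and not tested in edgeR because of its low counts (this gene was named after its values were seen). Over all genes, 231 passed an unadjusted p of 0.05, beside 348 with DESeq2, 414 with no filter and 120 with the haemoglobin share as covariate, and 191 to 373 with a cow left out (363 without high replicate 5, 373 without high replicate 2). With the haemoglobin share as covariate, the log2 fold change was -0.024 for *SLC2A1*, 0.16 for *PFKFB3*, 0.00193 for *PFKFB4* and 0.0158 for *PKM*, each reversed in sign, and the cause was not tested. *HK1*, near 0, turned negative with DESeq2 (-0.00262), limma-voom (-0.0103) and RLE factors (-0.00181). With upper-quartile factors 1 marker pair was past the threshold instead of 3.

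With each cow left out, the log2 fold change was between -0.0472 and 0.0568 for *HK1*, between -0.0439 and 0.27 for *HK3*, between -0.22 and 0.12 for *PFKFB3* and between -0.0561 and 0.079 for *LDHA*, and these ranges cross 0. It was between 0.0248 and 0.17 for *SLC2A1*, between 0.08 and 0.28 for *HK2*, between -0.37 and -0.18 for *PFKFB4* and between -0.37 and -0.20 for *PKM*. Between 0 and 2 of the 8 genes passed the unadjusted threshold, the number of correlated pairs was 0 to 7 and that of marker pairs was 0 to 9. Pairs numbered 2 without high replicate 1 or low replicate 11 and 1 without high replicate 2 or 7. Marker pairs numbered 1 without high replicate 1, 6 or 7 or low replicate 8, 9 or 13. No paired analysis was made, since the high and low groups held different cows and the labels name no pairs. Counting error stayed below the spread between cows for all 8 genes.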

Other observations

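Pathways that branch from glycolysis were also measured. Of 6 genes of the pentose phosphate pathway tested, which makes NADPH from glucose 6-phosphate, 3 had values above and 3 below 0 in the high against the low group, and 0 passed an unadjusted p of 0.05. *PGLS*, with the smallest p of those above 0, had a log2 fold change of 0.10 ± 0.15 (SE). The transketolase *TKT* and the transaldolase *TALDO1* were abundant, with medians of 738 and 785 CPM/kb, above that of *PKM* (596 CPM/kb).

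Of 9 glycogen genes tested, 2 had values above and 7 below 0, and 0 passed. *GYS1*, the glycogen synthase of most tissues, had a log2 fold change of -0.19 ± 0.14 and *PGM2* one of 0.33 ± 0.29. Of 8 oxygen sensing genes tested, 4 had values above and 4 below 0, and 0 passed, with *HIF1A*, which drives many glycolytic genes at low oxygen, at 0.17 ± 0.18 and *EPAS1* at -0.24 ± 0.20. In the 24 groups examined, which are 12 measures in both groups, no cow lay beyond Dixon's 95% limit for a single outlying sample, while chance alone would place about 1.2 groups there. This covers those measures only, and over all genes tested high replicate 4 stood apart, as given above.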
